A study of Mus musculus with 12 samples.

Results

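The cadherin-catenin complex and its junctional partners were followed as 10 genes in the retina of JR5558 mice and C57BL/6J mice. The genes were chosen by name (Cdh2, Ctnna1, Ctnnb1, Ctnnd1, Nectin1, Afdn, Tjp1, Epb41l5, Mpp7 and Pard6g). All 10 were among the 56748 genes of the deposited table, and all 10 were among the 18334 genes that had enough counts to be tested. Whole retinas were taken from JR5558 mice at 8 weeks and at 4 weeks of age and from wild-type C57BL/6J mice at 8 weeks and at 4 weeks, with 3 mice in each of the 4 groups and 1 retina per mouse. Poly-A RNA of the 12 retinas was sequenced as paired-end reads. JR5558 is a strain used as a model of spontaneous vessel growth into the outer retina. As background that the labels do not record, mutant alleles of Crb1 (rd8) and of Jak3 are known in the strain, so the strains differ at more than 1 locus, and the labels name no treatment. The sex of the mice was not given.

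Adherens junctions hold cells together through cadherins, whose extracellular parts bind each other across the gap between neighbouring cells. Inside the cell, catenins tie the cadherin tail to actin, and nectins, afadin and ZO-1 add a parallel link. In the retina such junctions join Müller glia to photoreceptor inner segments in a row known as the outer limiting membrane, next to the Crumbs and PAR polarity proteins.

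The libraries held 18029611 to 23739886 counts. Levels are given in CPM (counts scaled to a common library total). The CPM values of this paragraph and the summed marker levels carry no TMM factors, whereas all other CPM values do. Rlbp1, a retinaldehyde-binding protein gene of Müller glia, stood at 779 to 849 CPM in JR5558 retinas at 8 weeks and 684 to 800 CPM at 4 weeks. In C57BL/6J retinas it stood at 508 to 520 CPM at 8 weeks and 422 to 480 CPM at 4 weeks, so this retinal marker was present in every group. The sums of 5 corneal epithelium markers lay below 2 CPM in all 12 libraries, and those of 16 lens markers between 2.45 and 171 CPM, with 1 lens marker at 0 in all. The 3 JR5558 libraries at 4 weeks had 0 to 5 counts of Xist, the transcript of the inactive X chromosome, and 1323 to 1846 counts of the Y-linked Ddx3y. The other 9 libraries had 7772 to 22988 counts of Xist and 0 of Ddx3y. At 4 weeks strain and sex therefore cannot be told apart, and at 8 weeks all 6 libraries had the Xist-positive pattern. Within JR5558 the pattern differed between 4 and 8 weeks, so age and sex cannot be told apart in that strain. Comparisons that use the JR5558 4-week group, among them strain by age and the means over both ages or strains, carry this limit. In whole tissue, fewer cells of a type and less RNA per cell cannot be told apart either.

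Per deposited gene length, Ctnnb1 and Ctnna1 had the highest levels of the 10 genes, and Pard6g, Ctnnd1 and Mpp7 the lowest. In the deposited FPKM values (fragments scaled to gene length and library total), Ctnnb1 averaged 66.2 ± 3.35 FPKM (SD over all 12 libraries) and was 3.05 times as high as the next gene. Ctnna1 followed at 21.7 ± 0.916 FPKM, Nectin1 at 18.5 ± 1.66 FPKM, Cdh2 at 18 ± 1.97 FPKM and Tjp1 at 15.6 ± 1.67 FPKM. Nectin1 exceeded Cdh2 in 6 of 12 libraries, so their order was not settled, whereas Ctnna1 exceeded Nectin1 in 12 of 12 and Cdh2 exceeded Tjp1 in 10 of 12. These orders rest on the deposited gene lengths. For Nectin1 that length is 6562 bases, against 5653 exonic bases in GENCODE M21, so its rank beside Ctnna1 and Cdh2 is uncertain. Afdn averaged 9.14 ± 0.74 FPKM and Epb41l5 5.84 ± 0.474 FPKM. The lowest levels were those of Pard6g at 2.27 ± 0.256 FPKM, Ctnnd1 at 1.69 ± 0.143 FPKM and Mpp7 at 1.64 ± 0.207 FPKM. Ctnnd1 exceeded Mpp7 in 6 of 12 libraries. The low rank of Mpp7 rests on its deposited length of 20164 bases. In CPM, which are not scaled to length, Mpp7 stood above Ctnnd1 and Pard6g in every group. The level and rank of Ctnnd1 are uncertain, because 61.2% of its exonic bases are shared with the gene model Gm28635. How reads in such shared exons were counted is not given in the sources used here. Among the other cadherin genes of a list of cadherins and catenins, the levels nearest to Cdh2 were 8.03 FPKM for Cdh24 and 6.7 FPKM for Cdh4, so Cdh2 was the highest cadherin of that list in these retinas. The epithelial cadherin gene Cdh1 averaged 0.223 FPKM and the endothelial Cdh5 1.63 FPKM.

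**Figure D1:**
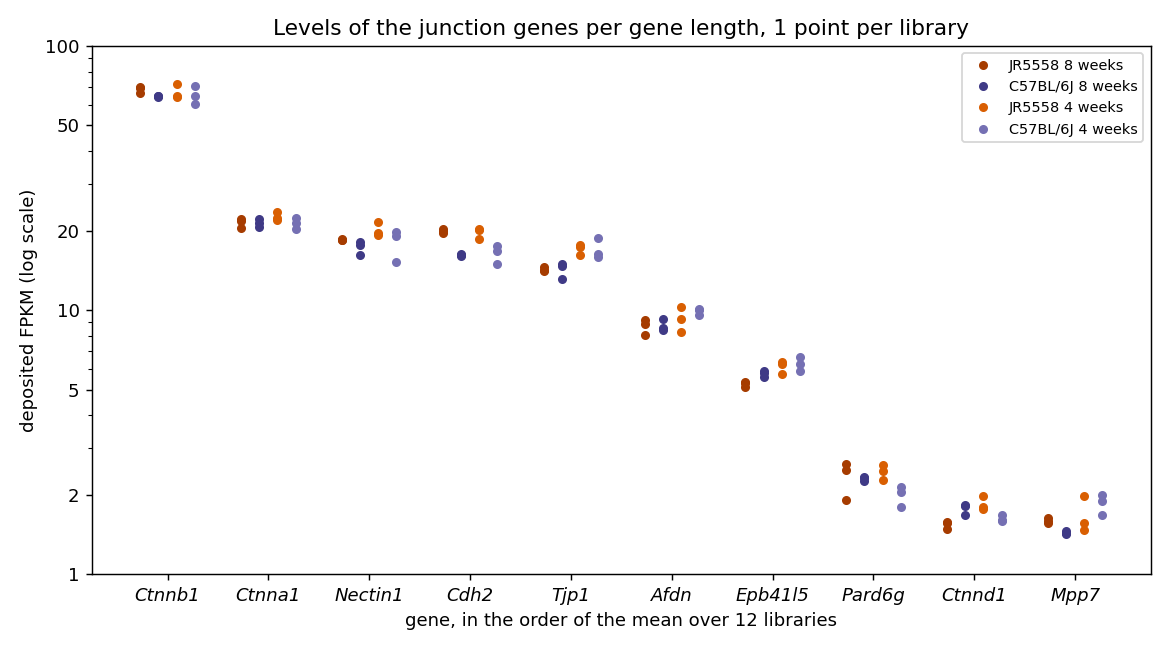
Deposited FPKM (log axis) of the 10 junction genes in each of the 12 libraries, with 1 point per library coloured by group. Ctnnb1 lies between 60.3 and 71.6 FPKM, apart from the rest, and Pard6g, Ctnnd1 and Mpp7 lie between 1.42 and 2.61 FPKM. The level of Ctnnd1 is uncertain, because 61.2% of its exonic bases are shared with another gene model.

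The α- and β-catenin genes varied very little. The SD of log2 CPM over all 12 libraries was 0.0597 for Ctnna1 and 0.0704 for Ctnnb1, against a median of 0.224 over all genes tested. Ranked by this spread, Ctnna1 stood at percentile 0.54 and Ctnnb1 at percentile 1.43 of the genes tested. The other 8 genes had SDs between 0.116 and 0.174, all below the median, with the largest for Mpp7. The median and the ranks are over tested genes of all levels. The spread was not set against that of genes of like level, so the part of level in these ranks was not tested.

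Between the strains, Cdh2 was the only gene of the 10 that passed the test. Cdh2 encodes N-cadherin, the main classical cadherin of neural tissue, and lies on chromosome 18 from 16588877 to 16809246 (GRCm38, minus strand). At 8 weeks its level was 165, 159 and 162 CPM in JR5558 retinas, against 133, 130 and 131 CPM in C57BL/6J retinas. The 4-week levels were 165, 151 and 164 CPM in JR5558 retinas, against 136, 122 and 141 CPM in C57BL/6J retinas. No C57BL/6J library reached the lowest JR5558 library of its age, and the C57BL/6J libraries were more alike at 8 weeks than at 4 weeks.

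The log2 fold change of Cdh2 in JR5558 over C57BL/6J was 0.30 ± 0.07 (SE) at 8 weeks, with an adjusted p of 0.0160 in edgeR's quasi-likelihood test. At 4 weeks it was 0.27 ± 0.07, with an adjusted p of 0.0315 in the same test. The fold at 4 weeks was 1.2, higher in 3 of 3 JR5558 libraries than in any C57BL/6J library of that age. The strain effect at 8 weeks minus that at 4 weeks was 0.04 ± 0.10 (95% interval −0.18 to 0.25, adjusted p 0.969). Averaged over both ages, in a comparison added after the data had been seen, the strain difference was 0.29 ± 0.05 with an adjusted p of 7.76e-04. Of all genes tested 11.2% passed in this comparison. The call for Cdh2 held in 12 of 12 fits that left out 1 library, with an adjusted p of at most 0.00440.

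The calls at single ages were less firm. At 8 weeks the value stayed between 0.30 and 0.32 when any 1 library was left out, but the adjusted p ranged from 0.0536 to 0.0794, above the threshold in 6 of 6 fits. At 4 weeks the call was lost without JR5558 replicate 1 (0.24, adjusted p 0.120), JR5558 replicate 3 (0.25, 0.109), C57BL/6J replicate 1 (0.28, 0.0622) or C57BL/6J replicate 2 (0.19, 0.180). It was also lost in a fit of the 4-week groups alone (0.27, adjusted p 0.193) and with no filter on low counts (adjusted p 0.0692). The 8-week call held in edgeR's fit of the 8-week groups alone (0.31, adjusted p 8.16e-04). DESeq2 gave an adjusted p of 0.00186 at 8 weeks and 0.00962 at 4 weeks. The authors' deposited table gives a log2 fold change of 0.31 with an adjusted p of 8.79e-07 for Cdh2 at 8 weeks, and 0.26 with an adjusted p of 0.186 at 4 weeks.

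**Figure D2:**
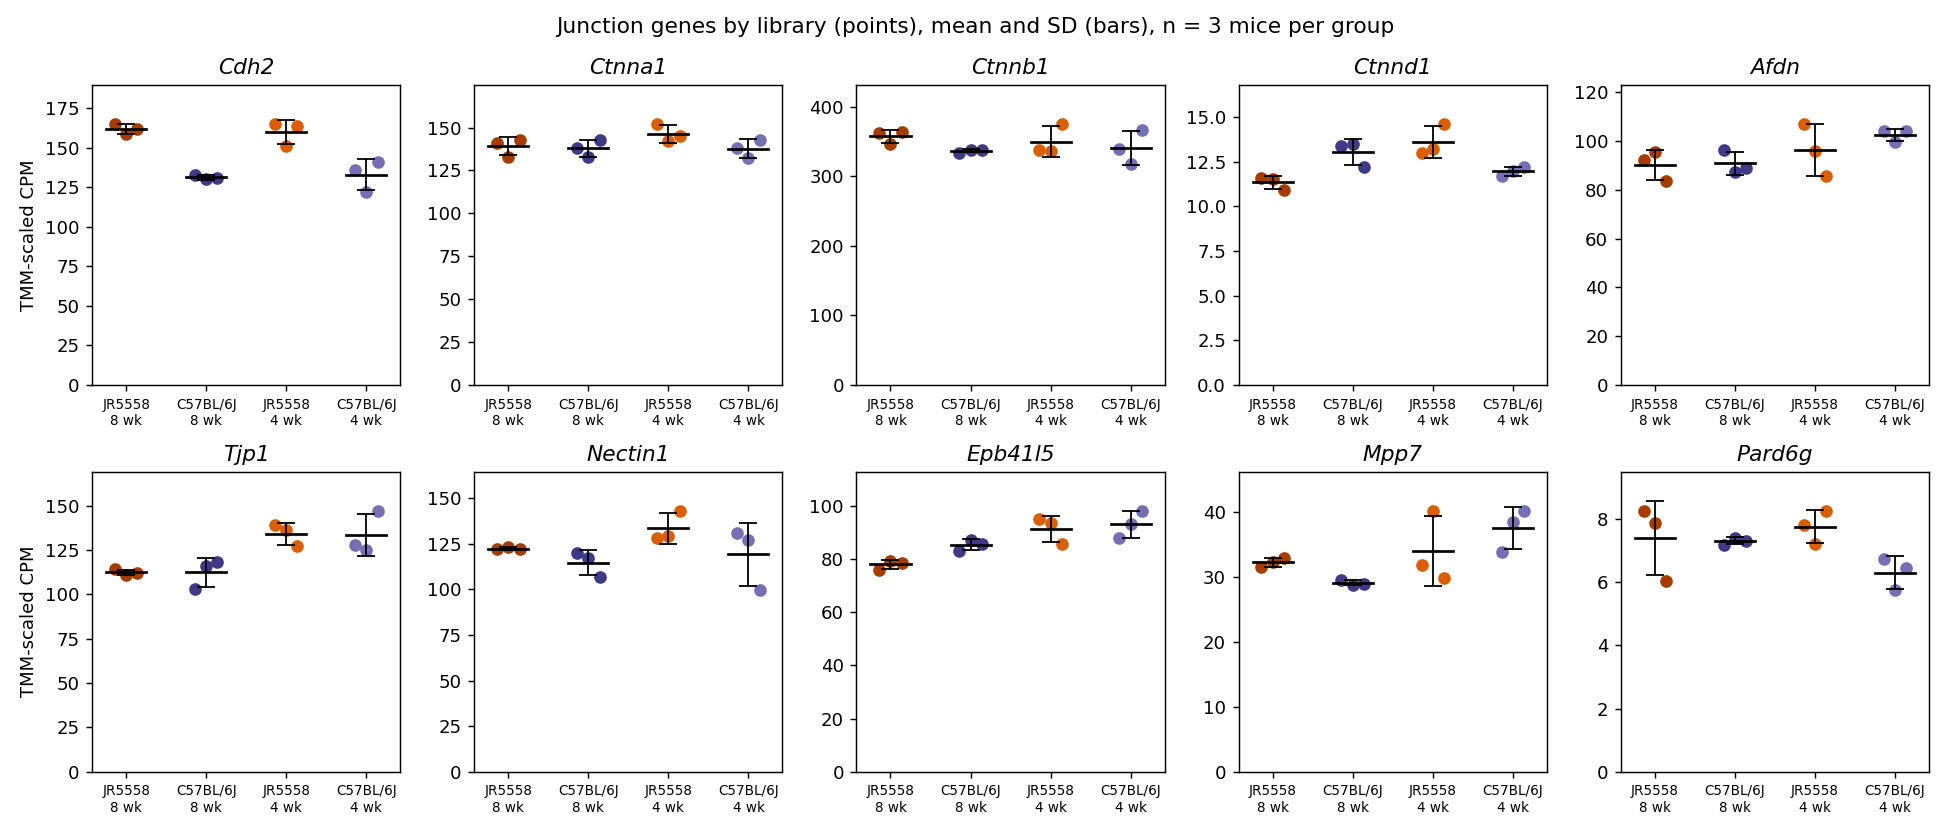
TMM-scaled CPM of the 10 junction genes by library (points) with the group mean and SD (bars, 3 mice per group), JR5558 left of C57BL/6J at 8 weeks and then at 4 weeks. The Cdh2 points of JR5558 lie between 151 and 165 CPM and those of C57BL/6J between 122 and 141 CPM, and the Tjp1 points at 8 weeks lie below those at 4 weeks in each strain.

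Counted over the 10 genes, 1 was higher in JR5558 and 0 lower at 8 weeks, where 5.18% of all genes tested passed in either direction (2.54% higher). The count at 4 weeks was likewise 1 higher and 0 lower, against 6.16% of all genes tested (3.27% higher). With 1 of 10 genes called, the share was close to this background. The median log2 fold change of the 10 genes was 0.01 at 8 weeks and 0.06 at 4 weeks, and the median over all genes tested was 0.00 at each age. The median size of the difference, regardless of sign, was 0.09 at 8 weeks and 0.12 at 4 weeks for the 10 genes, against 0.16 and 0.17 over all genes tested. Genes of like level were not compared apart.

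The catenin genes did not pass the test between strains. Ctnna1 encodes α-catenin, which links the complex to actin. Its levels were 141, 133 and 143 CPM in JR5558 retinas at 8 weeks, against 138, 133 and 143 CPM in C57BL/6J retinas. At 4 weeks they were 152, 142 and 145 CPM in JR5558 retinas, against 138, 132 and 143 CPM in C57BL/6J retinas. The groups overlapped at each age, and the 95% interval of the log2 fold change was −0.14 to 0.15 at 8 weeks and −0.06 to 0.23 at 4 weeks.

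Ctnnb1 encodes β-catenin, which binds the cadherin tail and also acts as a transcriptional coactivator in Wnt signalling. It stood at 362, 346 and 364 CPM in JR5558 retinas at 8 weeks, against 334, 338 and 338 CPM in C57BL/6J retinas. All JR5558 libraries were above the C57BL/6J libraries at this age, yet the log2 fold change was only 0.08 ± 0.07 (95% interval −0.06 to 0.23) and did not pass. At 4 weeks the groups overlapped, with 338, 336 and 375 CPM in JR5558 retinas and 339, 317 and 366 CPM in C57BL/6J retinas. Of the exonic bases of Ctnnb1, 14.6% overlap Ulk4 on the other strand, and whether the libraries keep strand is not settled.

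The ratios of Cdh2 to Ctnna1 and to Ctnnb1 were higher in JR5558 libraries at both ages, and that to Ctnnd1 overlapped between strains at 4 weeks. The ratio of Cdh2 to Ctnna1, both in FPKM, averaged 0.93 ± 0.0265 (SD, n = 3) in JR5558 retinas and 0.758 ± 0.0236 in C57BL/6J retinas at 8 weeks, and 0.869 ± 0.0304 in JR5558 retinas and 0.767 ± 0.028 in C57BL/6J retinas at 4 weeks. The ratio of Cdh2 to Ctnnb1 averaged 0.292 ± 0.00503 in JR5558 retinas and 0.251 ± 0.00361 in C57BL/6J retinas at 8 weeks. At 4 weeks it was 0.294 ± 0.0167 in JR5558 retinas and 0.251 ± 0.00608 in C57BL/6J retinas. Neither of these ratios overlapped between strains at either age. The ratio of Cdh2 to Ctnnd1 was 12.6 to 13.5 in JR5558 retinas and 8.75 to 9.72 in C57BL/6J retinas at 8 weeks, without overlap. The 4-week ratio to Ctnnd1 was 10.2 to 11.5 in JR5558 retinas and 9.25 to 10.5 in C57BL/6J retinas. The size of the ratio to Ctnnd1 is as uncertain as the level of Ctnnd1, which shares exonic bases with another gene model. No test was run on the ratios.

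Ctnnd1 encodes p120-catenin, which binds the cadherin near the membrane and holds it at the cell surface. It lies on chromosome 2 from 84600071 to 84650765 (GRCm38, minus strand). At 8 weeks it stood at 11.6, 11.5 and 10.9 CPM in JR5558 retinas, against 13.4, 13.5 and 12.2 CPM in C57BL/6J retinas, with every JR5558 library lower. At 4 weeks it stood at 13, 13.2 and 14.6 CPM in JR5558 retinas, against 11.7, 12 and 12.2 CPM in C57BL/6J retinas, with every JR5558 library higher. The log2 fold change was −0.21 ± 0.12 at 8 weeks and 0.19 ± 0.12 at 4 weeks, and neither passed the test. The difference between these strain effects, 8 weeks minus 4 weeks, was −0.39 ± 0.17, with an unadjusted p of 0.0291 and an adjusted p of 0.628 in edgeR's quasi-likelihood test. In this test of the difference edgeR and DESeq2 each called 0 of the 10 genes, and Ctnnd1 was the 1 with an unadjusted p under 0.05. Of all genes tested, 0.0927% passed by the adjusted p in edgeR's test and 7.19% had an unadjusted p under 0.05. DESeq2 called 63 of the 18334. The level of Ctnnd1 is uncertain, because 4482 of its 7319 exonic bases (61.2%) also belong to the gene model Gm28635 on the same strand, which had 0 counts in all libraries, and how reads in shared exons were counted is not given in the sources used here.

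Nectin1, an immunoglobulin-like adhesion protein that forms its own contacts beside cadherins, stood at 122, 123 and 122 CPM in JR5558 retinas at 8 weeks, against 120, 117 and 107 CPM in C57BL/6J retinas. The groups did not overlap at 8 weeks, but the log2 fold change of 0.09 ± 0.09 did not pass. At 4 weeks the levels were 128, 129 and 143 CPM in JR5558 retinas and 131, 127 and 99.4 CPM in C57BL/6J retinas, with C57BL/6J replicate 3 the lowest of all 12 libraries. Afdn encodes afadin, which joins the nectin tail to actin, and its log2 fold change between strains was −0.01 ± 0.09 at 8 weeks and −0.09 ± 0.09 at 4 weeks, with overlapping groups. Tjp1 encodes the scaffold ZO-1, and its strain difference was 0.00 ± 0.08 at each age (95% interval −0.16 to 0.17).

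The 3 polarity genes did not pass between strains either. Epb41l5 encodes a FERM-domain protein that binds Crumbs proteins. It stood at 75.9, 79.2 and 78.5 CPM in JR5558 retinas at 8 weeks, against 83.1, 87.2 and 85.5 CPM in C57BL/6J retinas. Every JR5558 library was lower at this age, with a log2 fold change of −0.13 ± 0.07 (95% interval −0.29 to 0.03).

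Mpp7 encodes a membrane-associated guanylate kinase that binds Lin7 and Dlg1. It stood at 31.6, 32.3 and 33 CPM in JR5558 retinas at 8 weeks, against 29.6, 28.8 and 29 CPM in C57BL/6J retinas, without overlap. The 4-week libraries gave 31.9, 40.1 and 29.9 CPM in JR5558 retinas, against 33.9, 38.5 and 40.2 CPM in C57BL/6J retinas, with overlap. Its log2 fold change was 0.15 ± 0.11 at 8 weeks and −0.15 ± 0.11 at 4 weeks.

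Pard6g encodes a PAR6 adaptor, which ties Cdc42 to atypical protein kinase C. It had 8.26, 7.89 and 6.05 CPM in JR5558 retinas at 8 weeks, against 7.19, 7.41 and 7.32 CPM in C57BL/6J retinas. The 4-week values were 7.8, 7.21 and 8.25 CPM in JR5558 retinas, against 6.74, 5.74 and 6.44 CPM in C57BL/6J retinas. The groups were apart at 4 weeks and overlapped at 8 weeks. The log2 fold change at 4 weeks was 0.30 ± 0.16, slightly above that of Cdh2 but with a 95% interval of −0.04 to 0.64.

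Groups that do not overlap were common in these data. At 8 weeks 6 of the 10 genes had JR5558 libraries all above (4 genes) or all below (2 genes) the C57BL/6J libraries, against 30.2% of all genes tested. At 4 weeks 3 of 10 did, all above, against 19.6% of all genes tested.

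**Figure D3:**
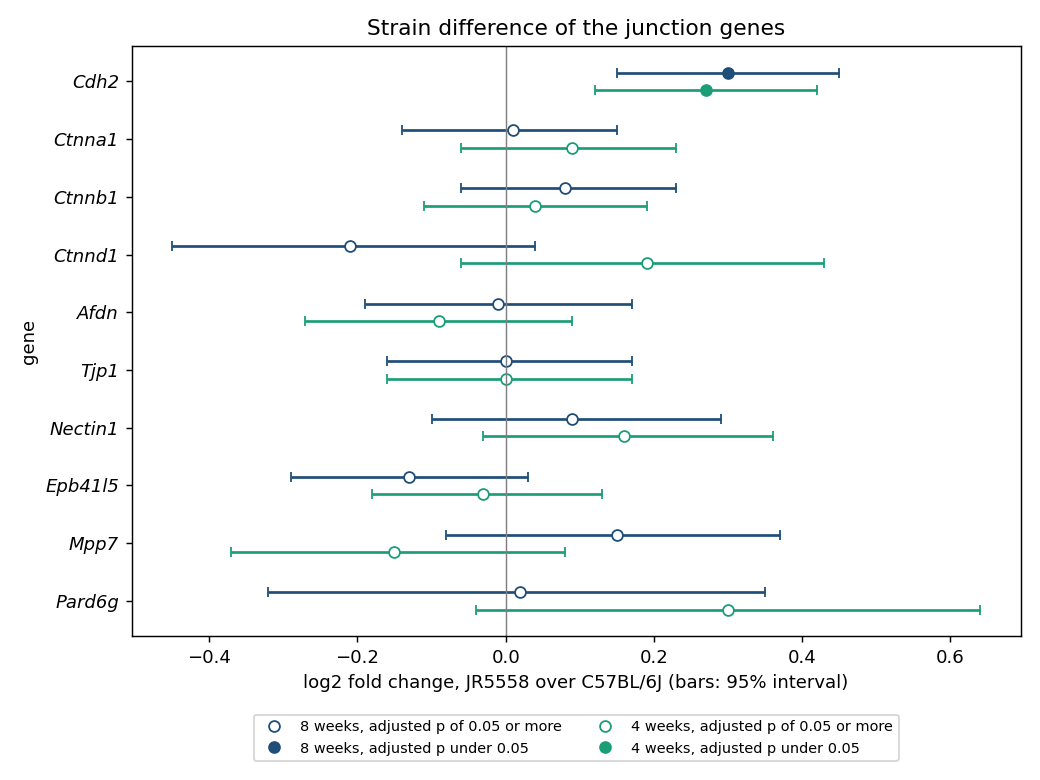
Log2 fold change of the 10 junction genes in JR5558 over C57BL/6J at 8 weeks and at 4 weeks, with 95% intervals. Filled points have an adjusted p under 0.05, which holds for Cdh2 at 0.30 and 0.27, and the intervals of all other genes include 0.

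Some markers of cells that build or border these junctions also differed between the strains. The marker lists were chosen with earlier results of these data known, so their calls are no independent evidence. The mean log2 CPM of 20 Müller glia markers was 7.14 to 7.25 in JR5558 retinas and 6.83 to 6.87 in C57BL/6J retinas at 8 weeks. At 4 weeks it was 7.00 to 7.08 in JR5558 retinas and 6.71 to 6.79 in C57BL/6J retinas. Over all genes tested, 5.18% passed at 8 weeks and 6.16% at 4 weeks in edgeR's test, and DESeq2 called 1233 and 1410 of the 18334. Of these 20 markers, 7 were higher in JR5558, 0 lower and 13 not past the threshold at each age. DESeq2 called 10 of them at 8 weeks and 9 at 4 weeks. The lowest adjusted p-values in edgeR's test were those of Dio2 (2.08 ± 0.20) and Crym (0.87 ± 0.11) at 8 weeks and Crym (1.07 ± 0.11) and Rlbp1 (0.72 ± 0.08) at 4 weeks, given with their log2 fold changes. Dio2 also differed by age, with a mean of 107 CPM at 8 weeks and 43.4 CPM at 4 weeks in JR5558 retinas.

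The mean log2 CPM of 21 pigment epithelium markers was 3.74 to 4.11 in JR5558 retinas and 2.79 to 3.27 in C57BL/6J retinas at 8 weeks, and 3.65 to 4.03 in JR5558 retinas and 2.35 to 3.20 in C57BL/6J retinas at 4 weeks. Their summed level was 665 to 871 CPM in JR5558 retinas and 329 to 491 CPM in C57BL/6J retinas at 8 weeks, and 570 to 805 CPM in JR5558 retinas and 241 to 448 CPM in C57BL/6J retinas at 4 weeks. Over all genes tested, 5.18% passed edgeR's test at 8 weeks and 6.16% at 4 weeks, and DESeq2 called 1233 and 1410 of the 18334. The share at an unadjusted p under 0.05 is not given here. Of the 21 markers, edgeR's test called 4 higher at 8 weeks and 14 at 4 weeks, with 0 lower. DESeq2 called 7 at 8 weeks and 9 at 4 weeks, and 16 and 14 had an unadjusted p under 0.05. Of the edgeR calls, 3 of 4 at 8 weeks and 7 of 14 at 4 weeks were lost in at least 1 fit without 1 library. The lowest adjusted p-values were those of Dct (log2 fold change 1.11 ± 0.24) and Pmel (1.00 ± 0.22) at 8 weeks, and of Krt18 (0.62 ± 0.09) and Pmel (1.42 ± 0.21) at 4 weeks. None of these markers was at 0 in all libraries.

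Neither marker score overlapped between the strains, so a fit that takes a score as a covariate also takes up part of the strain difference. When the pigment epithelium score entered the fit, the log2 fold change of Cdh2 was 0.15 ± 0.11 at 8 weeks (adjusted p 0.616) and 0.08 ± 0.12 at 4 weeks (adjusted p 0.836). With the Müller score it was 0.17 ± 0.25 at 8 weeks (adjusted p 0.916) and 0.15 ± 0.23 at 4 weeks (adjusted p 0.895). The strain difference of Cdh2 and those of the marker levels cannot be told apart in these libraries. Rod markers passed for 3 lower of 15 at 8 weeks and 0 at 4 weeks (2 at an unadjusted p under 0.05 and 0 in DESeq2), cone markers for 2 higher and 2 lower of 11 at 8 weeks and 2 higher and 3 lower at 4 weeks, and endothelial markers for 1 higher and 1 lower of 13 at 8 weeks and 2 higher at 4 weeks. Over all genes tested, 5.18% passed edgeR's test at 8 weeks and 6.16% at 4 weeks. The share at an unadjusted p under 0.05 is not given here. Of 14 tested lens markers 0 passed at either age in edgeR's test or DESeq2, with 0 at an unadjusted p under 0.05 at 8 weeks and 4 at 4 weeks, and the 5 corneal markers had too few counts to be tested.

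**Figure D4:**
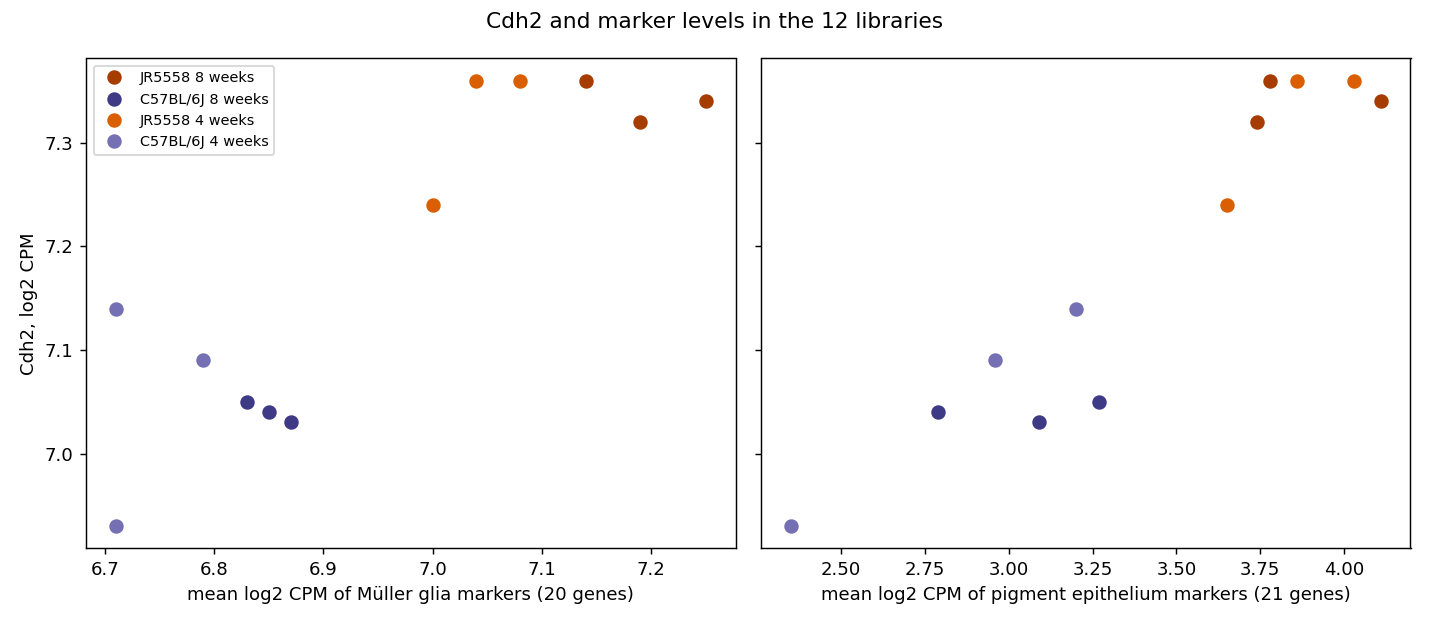
Log2 CPM of Cdh2 in each of the 12 libraries against the mean log2 CPM of 20 Müller glia markers (left) and of 21 pigment epithelium markers (right), coloured by group. The JR5558 libraries lie at 7.24 to 7.36 for Cdh2 and the C57BL/6J libraries at 6.93 to 7.14, and each marker score separates the strains as well.

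Among the named genes whose pattern over the 12 libraries was closest to that of Cdh2, by the root mean square difference of centred log2 CPM, were Bmerb1 (0.0551), Spon1 (0.0556), Slc1a3 (0.0608) and Cd99l2 (0.0608). The median of this distance over all genes tested was 0.269. Spon1, which encodes F-spondin, and Slc1a3, the glial glutamate transporter GLAST, are 2 of the 20 Müller markers. Cd99l2 encodes a membrane protein of cell adhesion. Among the other junction genes the nearest to Cdh2 was Ctnnb1 at 0.118, and the farthest was Mpp7 at 0.237.

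With age, Tjp1 was the 1 gene of the 10 that passed, and it did so only in the mean of both strains. ZO-1, its product, is a scaffold that binds afadin, α-catenin and actin. The gene lies on chromosome 7 from 65296165 to 65527781 (GRCm38, minus strand). In JR5558 retinas it stood at 114, 111 and 112 CPM at 8 weeks, against 139, 136 and 127 CPM at 4 weeks. In C57BL/6J retinas it stood at 103, 116 and 118 CPM at 8 weeks, against 128, 125 and 147 CPM at 4 weeks. Every 8-week library was below every 4-week library of its strain.

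The log2 fold change of Tjp1, 8 weeks over 4 weeks, was −0.25 ± 0.08 in JR5558 retinas (unadjusted p 0.00511, adjusted p 0.113) and −0.25 ± 0.08 in C57BL/6J retinas (unadjusted p 0.00532, adjusted p 0.162), so it passed in neither strain alone. Averaged over both strains, again a comparison added after the data had been seen, Tjp1 fell by 0.25 on the log2 scale, with an SE of 0.06 and an adjusted p of 0.0183 in edgeR's quasi-likelihood test. The call was lost without JR5558 4-week replicate 1 (adjusted p 0.0644) or without JR5558 8-week replicate 1 (0.0506), replicate 2 (0.0580) or replicate 3 (0.0587), and held in the other 8 of 12 fits. It was lost as well with the Müller score as a covariate (−0.19 ± 0.12, adjusted p 0.813), a score that was also higher at 8 weeks than at 4 weeks in each strain. The authors' deposited table gives −0.25 with an adjusted p of 0.0156 for Tjp1 in JR5558 and −0.25 with an adjusted p of 0.239 in C57BL/6J. Xist counts were 7772 to 12398 at 8 weeks and 0 to 5 at 4 weeks in JR5558 retinas. In C57BL/6J retinas they were 8928 to 15577 at 8 weeks and 16416 to 22988 at 4 weeks. Age and sex pattern thus coincide in JR5558, where the part of sex in the Tjp1 value cannot be told apart from that of age. The part of sex was not tested.

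None of the 10 genes passed the age test within a strain, where 1.51% of all genes tested passed in JR5558 and 0.431% in C57BL/6J. At an unadjusted p under 0.05 there were 3 of 10 in JR5558 (Tjp1, Epb41l5 and Ctnnd1), against 16.9% of all genes tested, and 2 of 10 in C57BL/6J (Tjp1 and Mpp7), against 14.4%. DESeq2 also called 0 of the 10 genes in either strain, and 2 of 10 over both strains. Of the 18334 genes tested it called 746 in JR5558, 407 in C57BL/6J and 1703 over both strains. Between ages, 8-week libraries lay wholly below 4-week libraries for 4 of the 10 genes in JR5558, and wholly below for 4 and above for 2 in C57BL/6J, against 24.3% of all genes tested without overlap in JR5558 and 19.0% in C57BL/6J. Over both strains the count of calls was 1 of 10, where 5.54% of all genes tested passed (3.06% lower).

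Epb41l5 stood at 75.9, 79.2 and 78.5 CPM at 8 weeks, against 94.8, 93.3 and 85.7 CPM at 4 weeks, in JR5558 retinas, and at 83.1, 87.2 and 85.5 CPM at 8 weeks, against 87.7, 93.2 and 98 CPM at 4 weeks, in C57BL/6J retinas. The 8-week libraries were lower without overlap in each strain. Its log2 fold change over both strains was −0.18 ± 0.05, with an adjusted p of 0.0548, just short of the threshold, and DESeq2 gave an adjusted p of 0.0194.

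Mpp7 had its largest age difference in C57BL/6J retinas, with 29.6, 28.8 and 29 CPM at 8 weeks, against 33.9, 38.5 and 40.2 CPM at 4 weeks. In JR5558 retinas the log2 fold change was −0.07 ± 0.11, and in C57BL/6J retinas it was −0.36 ± 0.11 (unadjusted p 0.00333, adjusted p 0.138). The difference between these age effects was 0.29 ± 0.15 (JR5558 minus C57BL/6J, adjusted p 0.719), so the strains were not shown to differ. Afdn had a log2 fold change of −0.09 ± 0.09 in JR5558 retinas and −0.17 ± 0.09 in C57BL/6J retinas, and Nectin1 one of −0.13 ± 0.09 in JR5558 retinas and −0.05 ± 0.09 in C57BL/6J retinas. For Cdh2 the age difference was 0.02 ± 0.07 in JR5558 retinas and −0.02 ± 0.07 in C57BL/6J retinas, with 95% intervals within −0.17 to 0.17.

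**Figure D5:**
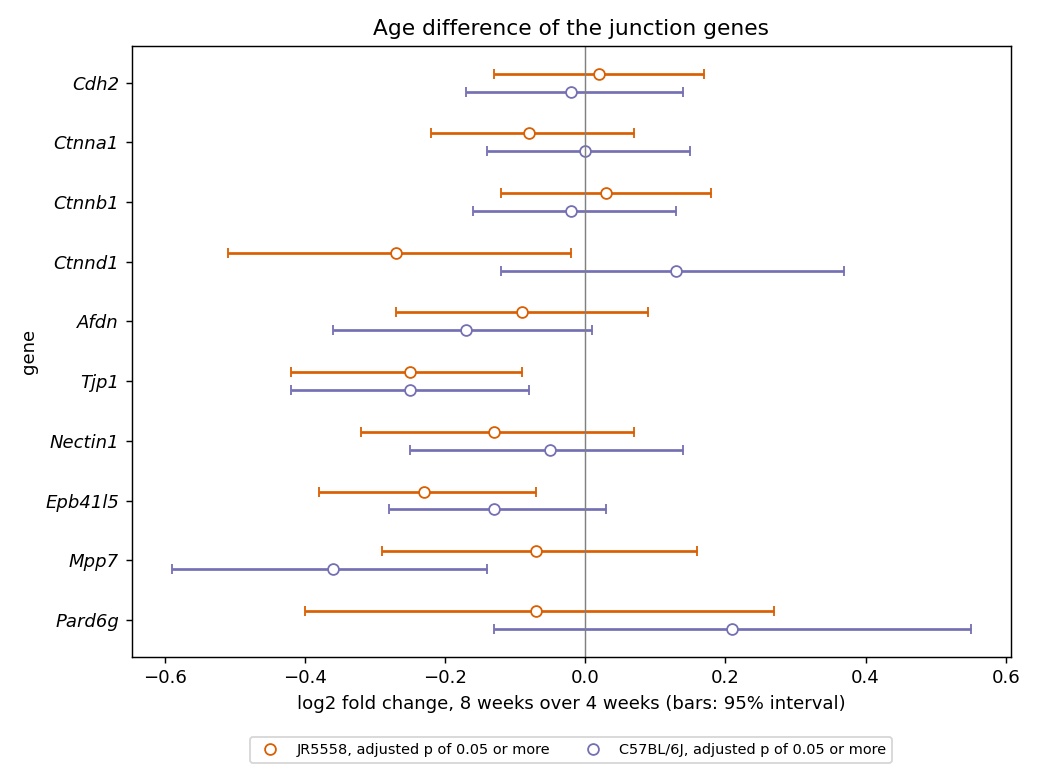
Log2 fold change of the 10 junction genes at 8 weeks over 4 weeks in JR5558 and in C57BL/6J retinas, with 95% intervals. No point has an adjusted p under 0.05, and Tjp1 lies at −0.25 in each strain.

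The wider gene lists of the same pathway were counted beside the 10 genes, which they do not include. Between strains, 5.18% of all genes tested passed at 8 weeks and 6.16% at 4 weeks. Of 23 tested cadherins and catenins, 1 was higher in JR5558 and 0 lower at each age. It was Cdh4, which encodes R-cadherin, a close relative of N-cadherin, at a mean of 50.7 CPM in JR5558 retinas and 39.3 CPM in C57BL/6J retinas at 8 weeks and 61.6 CPM in JR5558 retinas and 44.2 CPM in C57BL/6J retinas at 4 weeks. Its log2 fold change was 0.37 ± 0.10 at 8 weeks (adjusted p 0.0289) and 0.48 ± 0.09 at 4 weeks (adjusted p 0.00350). The 8-week call was lost in 6 of 6 fits without 1 library, up to an adjusted p of 0.0974, and the 4-week call in 0 of 6. The list's median was 0.08 at 8 weeks and 0.07 at 4 weeks.

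Of 12 tested nectins, Cadm proteins and partners, 1 was higher at each age. It was Pvr, a nectin-like immunoglobulin protein, at 0.80 ± 0.14 at 8 weeks (adjusted p 0.00169) and 0.54 ± 0.14 at 4 weeks (adjusted p 0.0255), the 4-week call being lost in 4 of 6 fits without 1 library. The list's median was 0.10 at 8 weeks and 0.07 at 4 weeks.

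Of 22 tested tight junction genes, 2 were higher and 1 lower in JR5558 at each age, with medians of −0.02 at 8 weeks and 0.03 at 4 weeks. Cldn2, a claudin that forms cation pores, was higher at both ages (0.72 ± 0.20 at 8 weeks and 0.71 ± 0.21 at 4 weeks), but each call was lost in 5 of 6 fits without 1 library. Marveld3 was higher at 8 weeks (0.43 ± 0.12, lost in 5 of 6) and Cldn1 at 4 weeks (0.91 ± 0.23, lost in 2 of 6). Cldn5, the claudin of vascular endothelium, was lower at 8 weeks (−0.65 ± 0.14, lost in 3 of 6), and Marveld2, which encodes tricellulin, at 4 weeks (−1.28 ± 0.33, lost in 3 of 6).

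Of 32 tested polarity, MAGUK and FERM genes, 2 were higher and 2 lower at 8 weeks, and 2 higher and 1 lower at 4 weeks, with medians of −0.01 and 0.01. Crb1, the Crumbs protein gene of the retinal apical membrane, averaged 159 CPM in JR5558 retinas and 464 CPM in C57BL/6J retinas at 8 weeks, and 175 CPM in JR5558 retinas and 502 CPM in C57BL/6J retinas at 4 weeks. Its log2 fold change was −1.55 ± 0.10 at 8 weeks (adjusted p 5.92e-09) and −1.53 ± 0.10 at 4 weeks (adjusted p 5.81e-09). Ezr, which encodes the membrane-actin linker ezrin, was higher at 0.70 ± 0.13 at 8 weeks and 0.97 ± 0.13 at 4 weeks, and Epb41l4a at 0.40 ± 0.11 and 0.55 ± 0.11. Epb41l2, a band 4.1 protein gene, was lower at 8 weeks (−0.25 ± 0.06). The 8-week calls of Epb41l4a and Epb41l2 were lost in 6 of 6 and 5 of 6 fits without 1 library.

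Of 19 tested target genes of β-catenin signalling, 0 were higher and 0 lower in edgeR's test at either age, with medians of 0.05 at 8 weeks and 0.11 at 4 weeks. At an unadjusted p under 0.05 there were 2 of them at 8 weeks and 5 at 4 weeks, and DESeq2 called 1 at 8 weeks and 0 at 4 weeks. Of the 18334 genes tested DESeq2 called 1233 at 8 weeks and 1410 at 4 weeks. The share of all genes at an unadjusted p under 0.05 is not given here for the strain comparisons, so those counts have no background beside them. Over both ages, in the comparison added after the data had been seen, 2 of the 19 were higher in JR5558 and 0 lower. The share passing over all genes tested was 11.2%. The 2 targets were Dkk3, which is also on the Müller list (0.21 ± 0.05, adjusted p 0.00722, lost in 0 of 12 fits without 1 library), and Nkd1 (0.29 ± 0.09, adjusted p 0.0391, lost in 9 of 12). With age within a strain, edgeR called 2 of the 108 different genes of the 5 lists in JR5558 retinas and 0 in C57BL/6J retinas. Over all genes tested it called 1.51% in JR5558 and 0.431% in C57BL/6J. DESeq2 called 746 of the 18334 genes tested in JR5558 and 407 in C57BL/6J. Of the 108 genes, DESeq2 called 8 in JR5558 and 1 in C57BL/6J. An unadjusted p under 0.05 in edgeR's test was reached by 22 and 15, against 16.9% and 14.4% of all genes tested. The edgeR calls in JR5558 were the tight junction genes Marveld3 (0.73 ± 0.12, adjusted p 0.00302) and Jam2 (−0.36 ± 0.08, adjusted p 0.0244, lost in 5 of 6 fits without 1 library). In the test of strain by age, edgeR and DESeq2 each called 0 of the 108 genes, and 6 had an unadjusted p under 0.05. Over all genes tested these shares were 0.0927% in edgeR and 7.19% by the unadjusted p, and DESeq2 called 63 of the 18334.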

How the data were processed

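HISAT2 2.0.5, fastp and featureCounts 1.5.0-p3 are the tools, and mm10 (GRCm38) the build, that the authors list per the submitters' processing notes. The deposited table holds raw counts per gene and library, per the file headers. FPKM values in it are the authors', per the file headers, with a method not given in the sources used here. Its log2 fold changes and p-values, raw and adjusted, are those of the authors' own comparisons, per the file headers, with a test not given in the sources used here. Group means that the authors deposited beside each comparison were not used. The labels' protocols describe both a directional and a non-directional library, so values of overlapping genes are uncertain. Positions are from GENCODE M21 by gene identifier, because the positions in the deposited table equalled them for Mpp7 alone among the 10 genes.

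Counts were tested with edgeR 4.0.16 (limma 3.58.1, R 4.3.3). The function filterByExpr, by group, kept genes with a minimum count of 10 and a minimum total of 15, 18334 in all, with 99.9% of the counts of each library. Libraries were scaled by TMM, and 1 quasi-likelihood model with 4 group means was fitted to all 12 libraries. The 2-sided quasi-likelihood test gave 5 contrasts, namely JR5558 over C57BL/6J for either age, 8 over 4 weeks for either strain, and their interaction (strain by age). Adjusted p-values are Benjamini-Hochberg values over the 18334 genes, with a threshold of 0.05. Log2 CPM used a prior count of 2, and the marker scores are means of it. Mean differences over both ages and over both strains were added after the data had been seen. The 10 genes and all lists were chosen with earlier results of these data known. Named list genes are those past the threshold by adjusted p, up to 4 per list and strain comparison and up to 2 per age comparison or marker list. The genes closest to Cdh2 are ranked by the root mean square difference of log2 CPM, each gene centred on its mean. Some genes that these rules select are left out and not reported here. The steps were tested on simulated data with planted changes, for the strain comparison at 4 weeks. Of planted changes, 1 of 50 was recovered at 1.2-fold, 22 of 49 at 1.5-fold, 36 of 49 at 2-fold and 40 of 49 at 4-fold. There were 6 false calls among 105 calls. A gene with a small difference that did not pass may therefore still differ.

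Replicate numbers did not pair the samples: of 18 same-numbered pairs across groups, 0 had deviations from the group means correlated above 0.1. Each replicate is a separate mouse, per the labels. Alternatives were DESeq2 1.42.0, RLE scaling, a fit without the filter, a filter of 1 CPM in at least 3 libraries, separate fits of each pair of groups, a replicate block, either marker score as a covariate, and leaving out each library. No set test was run.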

Additional observations from a re-analysis of the deposited data

Results flagged for a closer look

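Ctnnd1, the p120-catenin gene, had strain differences of opposite direction at the 2 ages. All 3 JR5558 libraries lay below all 3 C57BL/6J libraries at 8 weeks and above them at 4 weeks, and the strain effect at 8 weeks minus that at 4 weeks was −0.39 on the log2 scale. The same value is the age effect in JR5558 minus that in C57BL/6J, −0.39, with 8-week libraries all lower than 4-week libraries in JR5558 and all higher in C57BL/6J, there by a margin smaller than the rounding of the CPM values. The test of the difference gave an unadjusted p of 0.0291 and an adjusted p of 0.628 in edgeR's quasi-likelihood test, so the difference did not pass over all genes. At 4 weeks the strains also differed in the Xist pattern, and 61.2% of the exonic bases of Ctnnd1 are shared with another gene model. The part of either in this value was not tested.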

How the results depend on the processing

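Of the alternatives, RLE scaling and the filter of at least 1 CPM in 3 libraries kept every count of calls, over the 10 genes and over all genes tested, within 1.5 times its value, and the replicate block did so with 1 exception given below. Median shifts between scalings were at most 0.0039 in size. For the strain comparisons, the 10 genes held 0 calls instead of 1 with the pigment epithelium or the Müller score as a covariate, at 8 weeks, at 4 weeks and over both ages, and 0 at 4 weeks with no filter on low counts or with only the groups compared. For age over both strains they held 2 with DESeq2 and 0 with the Müller score, instead of 1. Over all genes, strain calls at 8 weeks were 949, against 43 with the Müller score, 271 with the pigment epithelium score and 2183 with only the groups compared. At 4 weeks they were 1130, against 67, 212 and 558 under the same settings, and over both ages 2050, against 50 with the Müller and 271 with the pigment epithelium score. Age calls in JR5558 were 277, against 746 with DESeq2, 17 with the Müller score, 854 with no filter and 544 with only the groups compared. In C57BL/6J they were 79, against 407, 2, 445 and 22. Over both strains they were 1016, against 1703 with DESeq2, 4 with the Müller score, 1689 with no filter and 641 with the replicate block. Strain by age gave 17, against 63 with DESeq2 and 96 with no filter. Leaving out 1 library gave 0 to 1 calls among the 10 genes at 4 weeks, 0 to 0 at 8 weeks and 0 to 3 for age over both strains. Over all genes it gave 538 to 649 for strain at 8 weeks, 814 to 1162 at 4 weeks, 1491 to 2209 over both ages, 63 to 689 for age in JR5558, 16 to 125 in C57BL/6J, 248 to 1819 over both strains and 6 to 38 for strain by age. With the Müller score the strain values of Cdh4 became −0.17 at 8 weeks and 0.00 at 4 weeks, and those of Cldn2 −0.43 and −0.30. The cause of these changes was not tested. Among single genes, 1229 recomputed values kept their direction and call or moved by no more than their SE, 111 lost the call, 4 gained it, 48 moved further and 4 turned round.

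The replicate number as a block is no pairing here (same-numbered correlations of −0.11 to 0.09). With it the 10 genes held 1 strain call at each age, Cdh2 at 0.30 (adjusted p 0.0198) at 8 weeks and 0.27 (0.0363) at 4 weeks, and all genes 845 at 8 weeks and 1010 at 4 weeks.

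Limits: 3 mice per group and 18029611 to 23739886 counts bound the precision of small differences. Ctnnd1, at 10.9 to 14.6 CPM, and Pard6g, at 5.74 to 8.26 CPM, rest on the fewest counts. Strain and sex pattern coincide at 4 weeks, age and sex pattern coincide within JR5558, and whole retina does not resolve cell types.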

Other observations

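Over both ages, in the comparison added after the data had been seen, 16 of the 108 different genes of the 5 pathway lists passed edgeR's test. The share over all genes tested was 11.2%. Of 23 cadherins and catenins 3 were higher in JR5558 retinas and 0 lower. Beside Cdh4 (0.42 ± 0.07, adjusted p 2.38e-04) they were Cdh13, the membrane-anchored T-cadherin gene (0.41 ± 0.09, adjusted p 0.00605), and Cdh11 (0.25 ± 0.07, adjusted p 0.0232, lost in 6 of 12 fits without 1 library). Cdh13 averaged 15.2 CPM in JR5558 retinas and 11.2 CPM in C57BL/6J retinas at 8 weeks, and 16.4 CPM in JR5558 retinas and 12.7 CPM in C57BL/6J retinas at 4 weeks.

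Of 32 polarity, MAGUK and FERM genes 3 were higher and 3 lower. Beside Crb1, Ezr, Epb41l4a and Epb41l2, Msn, which encodes moesin, was higher (0.26 ± 0.07, adjusted p 0.0283, lost in 8 of 12 fits) and Crb2, the other retinal Crumbs gene, was lower (−0.21 ± 0.06, adjusted p 0.0270, lost in 6 of 12). Of the other lists, nectins and partners held 1 higher, tight junction genes 2 higher and 2 lower, and β-catenin targets 2 higher.

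With age over both strains, where 5.54% of all genes tested passed, 9 of the 108 genes did. They were 0 of 23 cadherins and catenins (7 at an unadjusted p under 0.05 and 3 in DESeq2), 1 higher and 1 lower of 12 nectins and partners, 2 higher and 1 lower of 22 tight junction genes, 1 higher and 1 lower of 32 polarity genes and 2 higher of 19 β-catenin targets (Dkk3 and Rnf43, each lost in 9 of 12 fits without 1 library). DESeq2 called 1703 of the 18334 genes tested in this comparison. The share of all genes at an unadjusted p under 0.05 is not given here for it. The polarity genes were Crb3 and Lin7a. Crb3, a Crumbs gene of epithelia, averaged 4.06 CPM at 8 weeks and 1.63 CPM at 4 weeks in JR5558 retinas, and 2.64 CPM at 8 weeks and 1.18 CPM at 4 weeks in C57BL/6J retinas, with a log2 fold change of 1.24 ± 0.28 (adjusted p 0.0190, lost in 2 of 12 fits). Lin7a, whose product binds Mpp7 and other MAGUK proteins, averaged 39.7 CPM at 8 weeks and 50.6 CPM at 4 weeks in JR5558 retinas, and 41.3 CPM at 8 weeks and 56.3 CPM at 4 weeks in C57BL/6J retinas. Its log2 fold change was −0.40 ± 0.07 (adjusted p 0.00354, held in 12 of 12 fits without 1 library). These genes were chosen after their values had been seen. Age and sex pattern coincide in the JR5558 part of these means.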
